A study of Mus musculus with 8 samples.

Results

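The copines are a family of calcium-dependent, phospholipid-binding proteins, and the 9 mouse genes *Cpne1* to *Cpne9* were picked by symbol from the 48709 Ensembl genes counted in the P1 cortex. The family was taken up because *Cpne6* was among the genes with the lowest level in the mutant relative to the control, so the values of *Cpne6* in that contrast chose it and are given as a description without a test. The other 8 genes entered by family name. RNA-seq was compared between 4 control and 4 dcKO_Nex-Cre samples, with 1 library per sample. The study asked what the neuron-specific loss of the chromatin-remodelling BAF complex changes in the developing mouse cortex at postnatal day 1.

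Controls carried 1 floxed and 1 wild-type allele of each of *Smarcc1* (encoding BAF155) and *Smarcc2* (encoding BAF170), and had no Cre. The dcKO_Nex-Cre mice came from crosses of mice with both genes floxed to the Nex-Cre line. All mice were on a C57BL6/J background. Nex-Cre is active in postmitotic projection neurons of the cortex, and the interneurons, glia and vessels that are sequenced with them keep both genes. The Cre sits in the *Neurod6* locus and only the mutant carries it. The labels do not say whether the libraries came from separate animals, so p-values measure the spread between these libraries, which may be technical in part. RNA was taken from whole tissue, and in bulk tissue fewer cells of a type and less RNA per cell cannot be told apart.

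Copines carry a pair of C2 domains, which bind phospholipid membranes when calcium rises, followed by a von Willebrand factor A-like domain that binds partner proteins. *Cpne6* is a neuronal copine. In hippocampal neurons its protein moves to the membrane of dendritic spines upon calcium entry and takes part in the signalling that links the BDNF receptor TrkB to the small GTPase Rac1 and spine actin. *Cpne1* and *Cpne3* are expressed in many tissues, and the *Cpne3* protein binds the receptor ErbB2 and has been tied to cell migration.

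The *Cpne6* gene (ENSMUSG00000022212) lies at chr14:55510445-55517431 on the plus strand of GRCm38 (mm10). The other members lie on chromosomes 2, 4, 6, 8, 9, 15 and 17, with *Cpne2* and *Cpne7* both on chromosome 8. To ask whether reads of one copine could be counted for another, the coding sequences were compared. They ranged from 1602 bases in *Cpne3* to 1782 bases in *Cpne5*. The closest pair was *Cpne5* and *Cpne9*, with 76.6% identical bases. *Cpne5* and *Cpne8* shared 73.7% and *Cpne8* and *Cpne9* shared 72.2%. A second group joined *Cpne4* and *Cpne7* at 71.6%, *Cpne6* and *Cpne7* at 71.4% and *Cpne4* and *Cpne6* at 68.7%. Its lower edge was not sharp, since *Cpne2* and *Cpne3* shared 68.5% and *Cpne2* and *Cpne6* 68.1%. The lowest identity was the 63.1% of *Cpne6* and *Cpne8*. No stretch of 50 bases was identical between the transcripts of any pair of members.

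**Figure D1:**
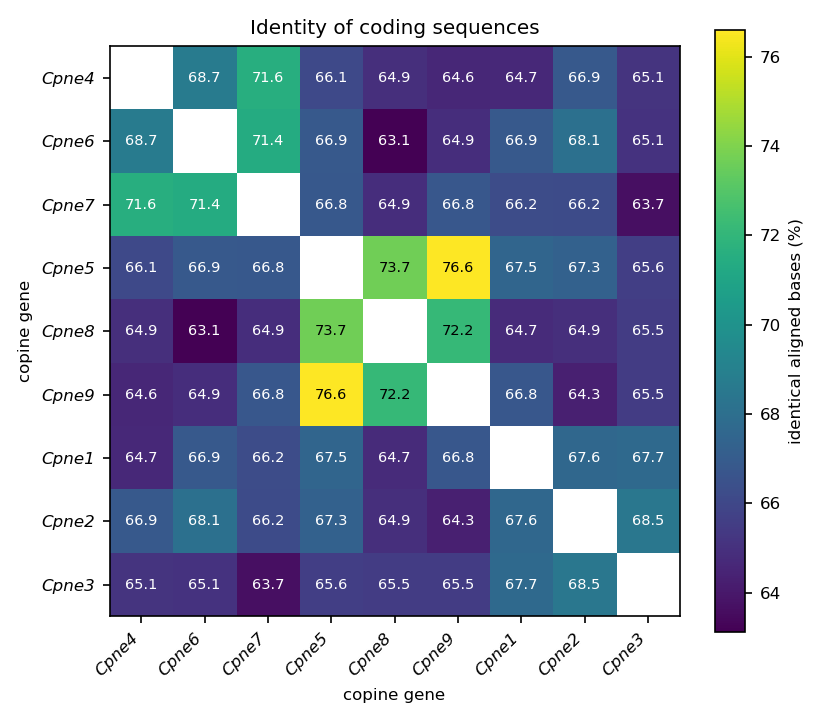
Percent identical bases between the aligned coding sequences of each pair of copines, with genes on both axes and the colour scale in percent. *Cpne5*, *Cpne8* and *Cpne9* form one block, with values of 72.2% to 76.6%, and *Cpne4*, *Cpne6* and *Cpne7* a second one, with values of 68.7% to 71.6%. Outside these blocks *Cpne2* and *Cpne3* reach 68.5%.

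Among the coding sequences compared, from a single transcript per gene, the longest stretch of *Cpne6* found without change in another member was 31 bases long. It covers coding bases 1498 to 1528 of the transcript Cpne6-201, in exon 15, at chr14:55516725-55516755 on the plus strand of GRCm38. The same 31 bases stand in *Cpne5*, across the junction of exons 20 and 21 of Cpne5-201. The 9 versions, read from the GENCODE M21 transcripts, are shown because they give the longest run that *Cpne6* shares with any other member in these coding sequences. They also show how far the rest differ there. Capitals mark a base identical to that of *Cpne6* and lower case a different base.
Cpne6: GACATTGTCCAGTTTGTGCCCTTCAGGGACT
Cpne5: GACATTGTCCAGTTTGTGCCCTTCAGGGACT
Cpne4: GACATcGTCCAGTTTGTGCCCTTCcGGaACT
Cpne8: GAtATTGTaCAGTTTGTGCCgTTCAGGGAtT
Cpne3: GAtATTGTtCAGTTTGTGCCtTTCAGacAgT
Cpne7: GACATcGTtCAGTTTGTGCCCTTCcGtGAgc
Cpne2: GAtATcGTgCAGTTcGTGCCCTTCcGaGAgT
Cpne9: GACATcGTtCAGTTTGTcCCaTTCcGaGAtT
Cpne1: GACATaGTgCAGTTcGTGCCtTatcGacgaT
*Cpne4* differed from *Cpne6* at 3 of the 31 bases, *Cpne8* at 4, *Cpne3* and *Cpne7* at 6, *Cpne2* and *Cpne9* at 7 and *Cpne1* at 11. *Cpne6* and *Cpne5* thus match here although they are not the closest pair over the coding sequence. Within the coding sequences compared, a read longer than this stretch reaches bases at which the members differ. Untranslated parts and other transcripts were compared only for stretches of 50 bases.

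Total counts were 18737230 to 24036915 per control library and 17958641 to 35191912 per dcKO_Nex-Cre library, and 23596 to 24221 genes were detected. Levels are stated in CPM, the count of a gene relative to the library size after TMM normalization. The targeted genes were lower in the libraries labelled mutant. *Smarcc1* fell from 148 ± 11.6 to 102 ± 13.7 CPM (SD, n = 4 each), a log2 fold change of -0.53 (SE 0.10, edgeR adjusted p = 0.0348). It was lower in every alternative fit but passed in only 2 of the 8 fits that leave out a library, and not with a replicate block (edgeR adjusted p = 0.0578) or lane tag 2 only (0.0752). *Smarcc2* fell from 462 ± 25.8 to 263 ± 26.0 CPM, with a log2 fold change of -0.81 (SE 0.09, edgeR adjusted p = 0.00267).

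Of the 9 copines, 8 passed edgeR's filter on low counts, and *Cpne1* did not. To compare the levels of different genes, CPM was divided by the exonic length in kb. This length merges the exons of all annotated transcripts of a gene, from 3.2 kb for *Cpne2* to 13.6 kb for *Cpne5*. The order of the genes depends on it. In CPM not divided by length, the control means of *Cpne5* and *Cpne3*, 40.4 and 27.3, were above the 23.2 of *Cpne6*. In the control, *Cpne2* had the highest level per kb, with a mean of 15.4 CPM per kb, followed by *Cpne4* with 8.57 and *Cpne6* with 5.45. Then came *Cpne3* with 3.83, *Cpne8* with 3.69, *Cpne5* with 2.98 and *Cpne7* with 2.90 CPM per kb. *Cpne9* was far below, at 0.146 CPM per kb. In the control libraries the ranges of *Cpne2* and *Cpne4* did not overlap, nor did those of *Cpne8* and *Cpne5* or of *Cpne7* and *Cpne9*, whereas the other neighbours among these 8 genes overlapped.

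By level per kb, *Cpne6* stood sixth in the dcKO_Nex-Cre cortex instead of the third place it held in the control, with 1.83 CPM per kb. Its neighbours were *Cpne5* with 2.86 and *Cpne7* with 1.78 CPM per kb, and its libraries overlapped with those of both. *Cpne2* and *Cpne4* kept the first places, with 12.3 and 6.62 CPM per kb. *Cpne3* and *Cpne8* followed with 4.38 and 4.19. In these libraries only *Cpne4* and *Cpne3*, and *Cpne7* and *Cpne9*, were neighbours in this order without overlap among the 8 genes. In CPM not divided by length, the mutant mean of *Cpne6*, 7.77, was below the 9.38 of *Cpne7*.

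**Figure D2:**
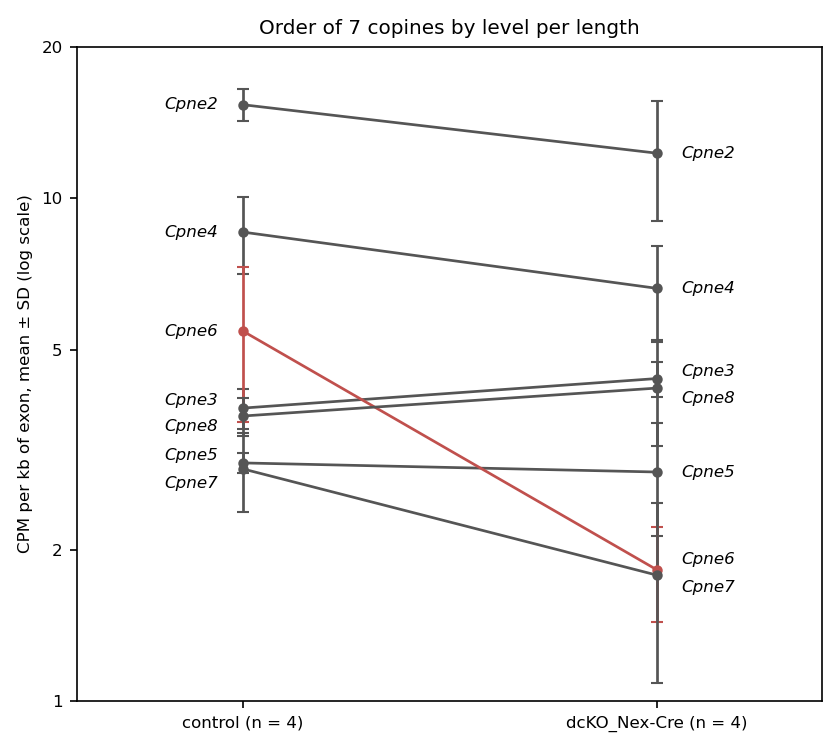
Mean level per exonic length of 7 copines (CPM per kb of exon, log scale, points with SD bars, n = 4 libraries per group) in control and dcKO_Nex-Cre cortex, with a line joining the means of each gene. *Cpne6*, in red, goes from 5.45 to 1.83 CPM per kb and from the third to the sixth place; *Cpne1* and *Cpne9*, both under 0.2 CPM per kb, are not drawn.

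*Cpne6* was measured at 25.003, 18.2, 16.0 and 33.5 CPM in control replicates 1 to 4. In dcKO_Nex-Cre replicates 1 to 4 it was measured at 9.88, 6.78, 8.25 and 6.17 CPM. The groups did not overlap, and the lowest control library was above the highest mutant library, as was so for 4.01% of all genes tested. The means were 23.2 ± 7.89 and 7.77 ± 1.66 CPM, so the mutant held 33.5% of the control level, and the control libraries were spread more widely than the mutant ones. The fitted log2 fold change was -1.57 (SE 0.23), with a 95% interval of -2.07 to -1.06, the 25th lowest of the 16287 genes tested. These values rest on 110 to 761 counts per library. Because they are the ones that put the family forward, no p-value is given. The interval is likewise a description and not a test against 0, since choosing a gene for its low value can move the estimate away from 0.

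**Figure D3:**
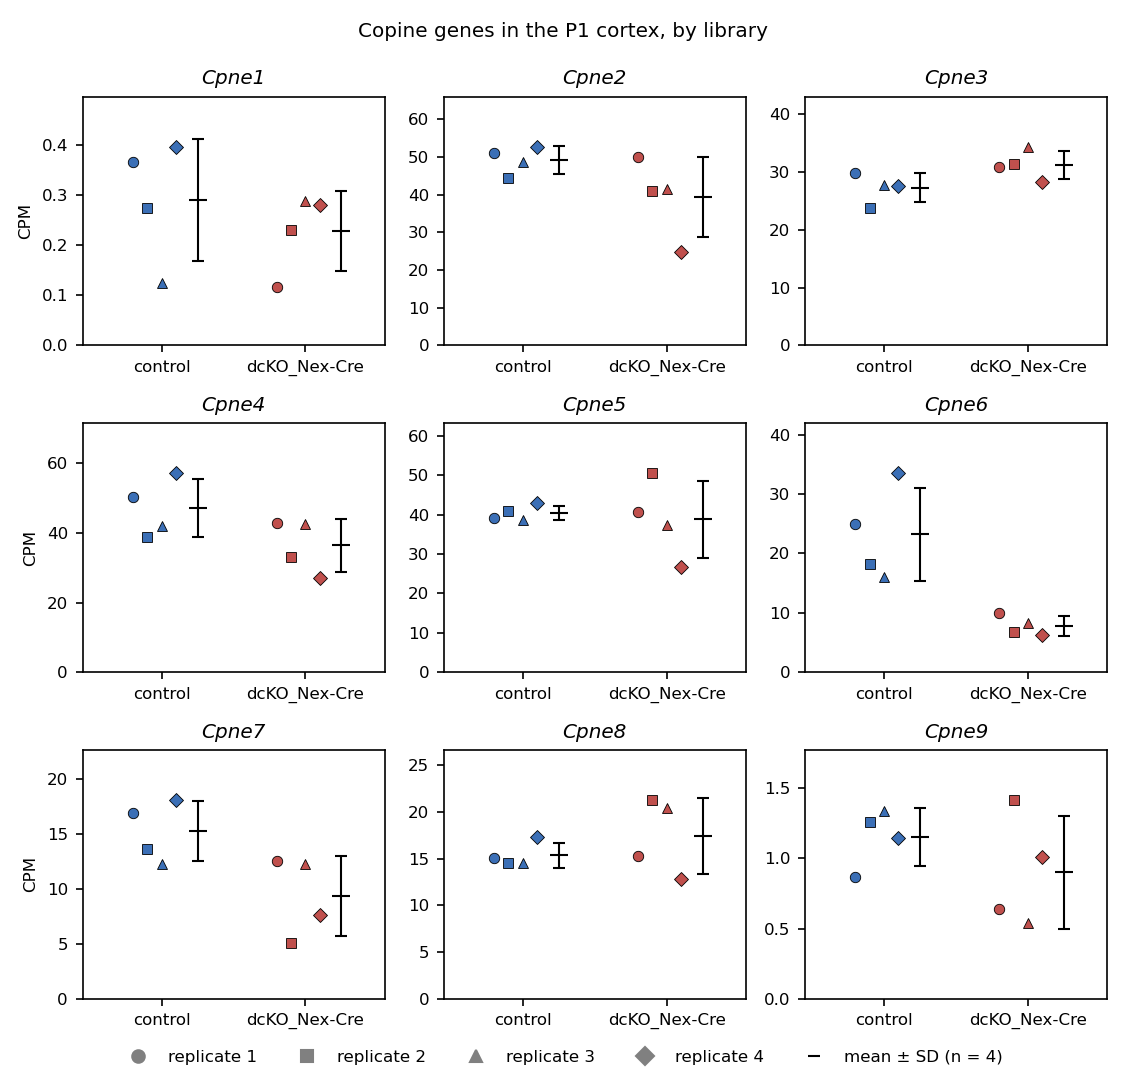
CPM of the copines in each library, with 1 panel per gene, control in blue and dcKO_Nex-Cre in red, points for single libraries (shape for the replicate) and black bars for the mean and SD (n = 4). The *Cpne6* points of the groups are apart, at 16.0 to 33.5 against 6.17 to 9.88 CPM, whereas the points of the groups overlap in each of the other panels.

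Of the other 7 copines tested, 0 passed an adjusted p of 0.05 in edgeR's quasi-likelihood test with Benjamini-Hochberg adjustment. Of all genes tested 0.884% did, 0.510% lower and 0.375% higher in the mutant. DESeq2's Wald test also called 0 of these 7, with 1.71% of all genes called lower and 1.32% higher. Limma-voom called 0 of them as well, with 0.485% of all genes lower and 0.307% higher. Without adjustment, *Cpne4* and *Cpne7* had a p under 0.05 and were lower and 0 were higher, beside 7.05% of all genes lower and 6.59% higher. The libraries of the groups overlapped for all 7, whereas among all genes tested 4.01% had every mutant library below the controls and 3.99% had every mutant library above them. The fitted log2 fold change was below 0 for 5 of the 7, with a median of -0.32, and for 49.1% of all genes, whose median was 0.0043. A p that misses the threshold does not show that a level was the same, and the interval of each gene is given with its values.

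*Cpne7* and *Cpne4* are the members with the coding sequences most like that of *Cpne6*, at 71.4% and 68.7%, with *Cpne2* close behind at 68.1%. *Cpne7*, whose protein is known as a factor in tooth dentin formation, was at 16.9, 13.6, 12.3 and 18.1 CPM in control replicates 1 to 4. In the mutant it was at 12.6, 5.06, 12.3 and 7.63 CPM. Mutant replicates 2 and 4 lay well below all controls, replicate 3 lay just below the lowest control and replicate 1 within the control range. The means were 15.3 ± 2.74 and 9.38 ± 3.66 CPM, with a log2 fold change of -0.69 (SE 0.25) and a 95% interval of -1.25 to -0.13. The edgeR adjusted p was 0.268.

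*Cpne4* was at 50.3, 38.9, 42.1 and 57.2 CPM in the control and at 42.9, 33.0, 42.7 and 27.1 CPM in the mutant. Here too mutant replicates 2 and 4 lay below the controls, and replicates 1 and 3 lay within their range. The means were 47.1 ± 8.29 and 36.4 ± 7.73 CPM. Its log2 fold change was -0.37 (SE 0.16), with a 95% interval of -0.72 to -0.016 and an edgeR adjusted p of 0.343.

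Among the related genes *Cpne5*, *Cpne8* and *Cpne9*, *Cpne5* was at 39.2, 40.8, 38.7 and 42.9 CPM in the control, a narrow spread with an SD of 1.88 CPM. The mutant libraries had 40.6, 50.5, 37.3 and 26.6 CPM and lay on both sides of the control range. The log2 fold change was -0.056 (SE 0.15), with a 95% interval of -0.39 to 0.28 and an edgeR adjusted p of 0.895. The sign turned to 0.088 without dcKO_Nex-Cre replicate 4.

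*Cpne8* was at 15.02, 14.6, 14.6 and 17.3 CPM in the control and at 15.2, 21.3, 20.4 and 12.9 CPM in the mutant. Mutant replicates 2 and 3 lay above all controls and replicate 4 below them. For *Cpne8* the log2 fold change was 0.19 (SE 0.16), with a 95% interval of -0.15 to 0.53 and an edgeR adjusted p of 0.608. It was 0.080 without dcKO_Nex-Cre replicate 2, 0.10 without replicate 3 and 0.31 without replicate 4.

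*Cpne9* was low throughout, at 0.870, 1.26, 1.34 and 1.15 CPM in the control and at 0.638, 1.42, 0.536 and 1.01 CPM in the mutant. With a mean of 23.8 counts per library, counting alone gives a coefficient of variation of 20.5%. The log2 fold change of -0.37 had an SE of 0.32 and a 95% interval of -1.07 to 0.33 (edgeR adjusted p = 0.626), and it moved to -0.69 without dcKO_Nex-Cre replicate 2, -0.21 without replicate 1 and -0.19 without replicate 3. The SD of the mutant libraries was 0.401 CPM around a mean of 0.901 CPM.

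*Cpne2*, the member with the highest level, was at 50.9, 44.3, 48.6 and 52.7 CPM in the control and at 50.1, 40.97, 41.6 and 24.8 CPM in the mutant. The mutant library at 50.1 CPM lay within the control range, and those at 40.97 and 41.6 CPM lay below all controls. Replicate 4 of the mutant lay far below the other 7 libraries. For *Cpne2* the log2 fold change was -0.32 (SE 0.17), with a 95% interval of -0.69 to 0.05 and an edgeR adjusted p of 0.427. Without that library it was -0.15.

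*Cpne3* was at 29.9, 23.9, 27.7 and 27.7 CPM in the control and at 30.9, 31.3, 34.4 and 28.3 CPM in the mutant. Of the mutant libraries 3 lay above all controls, and replicate 4 lay below the highest control. The fitted log2 fold change was 0.20 (SE 0.09), with a 95% interval of -0.01 to 0.40 and an edgeR adjusted p of 0.384.

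**Figure D4:**
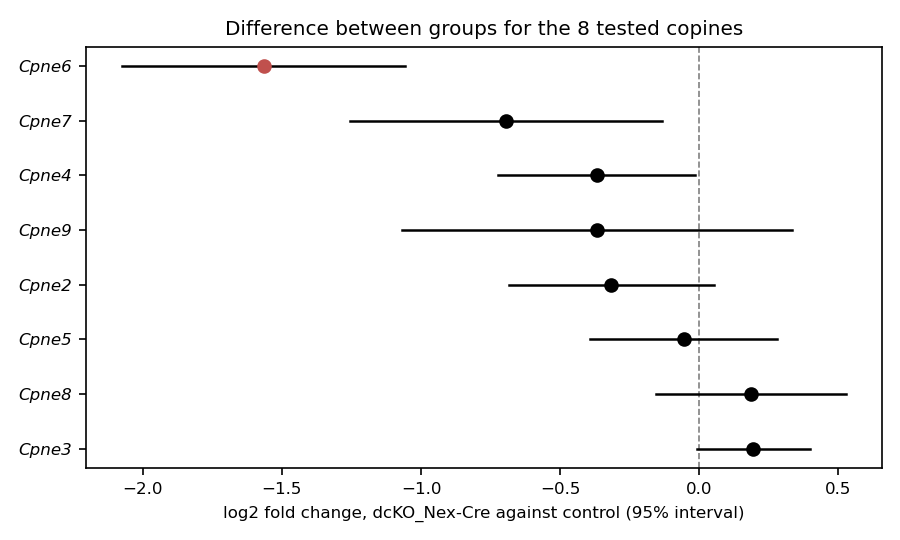
Fitted log2 fold change (dcKO_Nex-Cre minus control) of the 8 tested copines, with points for the edgeR estimate and bars for the 95% interval. The bar of *Cpne6*, whose values chose the family, runs from -2.07 to -1.06 and is a description. The bars of *Cpne7* and *Cpne4* end below 0 before adjustment, and the other 5 include 0.

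*Cpne1* had 47 counts over all 8 libraries, 3 to 9 in each, and was not tested. Its 4507 exonic bases are shared with other genes over 84.1%. The readthrough gene *Gm28036* on the same strand holds 3755 of them, and *Rbm12* holds 404. *Gm28036* was at 0 in all libraries and *Rbm12* had a mean of 1088 counts. How the counting program treats reads that fit several genes is not given in the sources used here, so the count of *Cpne1* is not read as its level. Shared exons covered 1.27% of *Cpne7* and 0.0381% of *Cpne9*, and no base of the other 6 members.

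Within the family, *Cpne6* made up a smaller share of the summed CPM per kb in the mutant. The share was 12.4% ± 2.70 in the control, with a range of 9.54% to 15.9%, and 5.37% ± 0.634 in the mutant, with a range of 4.58% to 5.92%. The shares of a library add up to a whole and are not independent of each other. They also depend on the exonic length used for each gene. *Cpne3* went from 8.96% to 13.1% and *Cpne8* from 8.63% to 12.4%, without overlap of the libraries for either. For *Cpne8* the highest control share was 9.23% and the lowest mutant share 9.33%. In CPM the libraries of the groups overlapped for both genes. *Cpne2* was at 35.9% and 35.6% in control and mutant, *Cpne4* at 19.8% and 19.4%, *Cpne5* at 6.99% and 8.38% and *Cpne7* at 6.71% and 5.22%. The summed level was 43.0 ± 5.41 CPM per kb in the control and 34.1 ± 6.48 CPM per kb in the mutant, and the libraries of the groups overlapped.

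Single libraries moved several copines together. Control replicate 4 was the highest of its group for 6 of the 8 tested members, beside 22.9% of all genes tested, and the lowest for 0, beside 23.4%. dcKO_Nex-Cre replicate 4 was the lowest of its group for 6 of the 8, beside 37.8% of all genes tested. That library also had the smallest total, 17958641 counts, and mitochondrial genes took 6.15% of its counts, against 2.33% to 3.47% in the other 3 mutant libraries. The part of these in the copine values was not tested. Control replicate 2, with 6.87% of counts in mitochondrial genes, was the lowest control for 4 of the 8 members, beside 34.8% of all genes tested.

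Lane tags also differ, since dcKO_Nex-Cre replicates 3 and 4 carry lane tag 8 and the other 6 libraries lane tag 2. Among the libraries of lane tag 2 alone, *Cpne6* was at 35.9% of the control (log2 fold change -1.47, SE 0.33). There 0 of the other 7 members passed edgeR's test, beside 0.643% of all genes lower and 0.834% higher. In the same libraries *Cpne2* was at 92.6% and *Cpne5* at 113% of the control, and *Cpne7* at 57.8%.

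Markers of the choroid plexus, an epithelium that lies next to the cortex and is not part of it, varied between libraries and moved with *Cpne6* among the controls. The summed CPM of 7 such markers was 749, 23.6, 95.5 and 1351 in control replicates 1 to 4 and 16.2, 561, 8.79 and 4.49 in dcKO_Nex-Cre replicates 1 to 4. *Ttr*, the thyroid hormone carrier of that epithelium, made up most of it. The controls with the highest sums, replicates 4 and 1, also had the highest *Cpne6*. Control replicates 2 and 3 had 18.2 and 16.0 CPM of *Cpne6*, and mutant replicate 2 had 6.78 CPM with a sum of 561. The part of choroid plexus tissue in the *Cpne6* values was not tested. In the 5 libraries with sums under 100, chosen after seeing the data, *Cpne6* was at 47.4% of the control (log2 fold change -1.07, SE 0.21). In these libraries *Cpne7* was at 83.5% and *Cpne4* at 92.8% of the control. *Cpne9*, which had few counts, moved the other way, to 56.1% (log2 fold change -0.86, SE 0.39), against 78.2% in all 8 libraries.

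**Figure D5:**
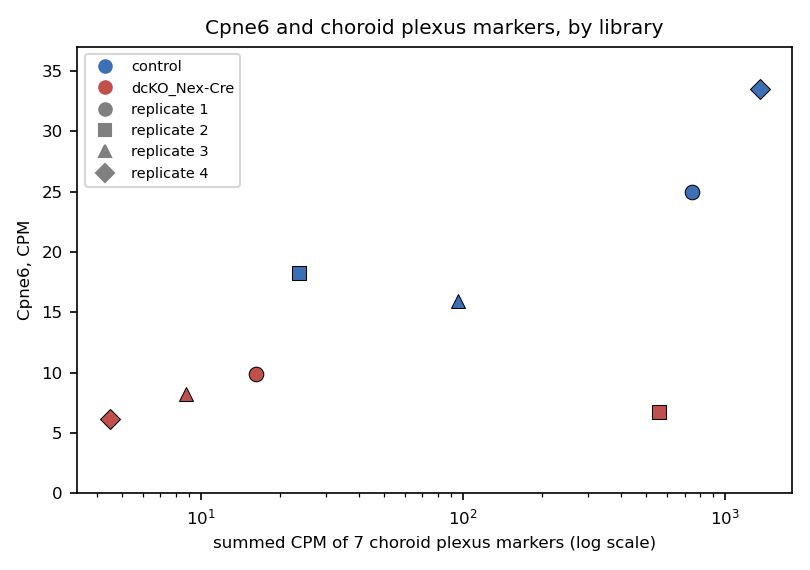
*Cpne6* in CPM (vertical axis) against the summed CPM of 7 choroid plexus markers (horizontal axis, log scale), with 1 point per library, colour for the group and shape for the replicate. The control points lie at 16.0 CPM or above at any marker sum, and the mutant points at 9.88 CPM or below, including the one with a marker sum of 561.

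The summed CPM of 10 striatal neuron markers was 230 to 309 in the controls and 262, 542, 215 and 174 in dcKO_Nex-Cre replicates 1 to 4. Replicate 2, with the highest sum, also had the highest *Cpne5* and *Cpne8* and the lowest *Cpne7* of the mutant libraries. The part of striatal tissue in these values was not tested. Of the 10 markers, *Ppp1r1b* rose, from 30.4 ± 2.26 to 59.0 ± 19.7 CPM (edgeR adjusted p = 0.0400), while the groups overlapped for the sum. Of all genes tested, 0.375% rose.

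Other cell type markers bear on the tissue that the copines were measured in. Markers of cortical projection neurons, the cells in which Nex-Cre acts, summed to 2784 to 3208 CPM in the control and 2631 to 2995 CPM in the mutant. Of 18 such genes, 1 fell and 0 rose, beside 0.510% and 0.375% of all genes tested. The median log2 fold change of the 18 was 0.065. The gene that fell was *Neurod6*, from 645 ± 84.4 to 387 ± 48.0 CPM (log2 fold change -0.74, edgeR adjusted p = 0.0192). The loss of one intact allele to the Cre insertion and other changes of *Neurod6* cannot be told apart here. Of 10 hippocampal neuron markers, which matter because *Cpne6* is known from the hippocampus, 9 were tested and 0 passed. Without adjustment 1 of these was lower and 2 were higher in the mutant, beside 7.05% and 6.59% of all genes tested. *Wfs1* had the smallest p, at 11.5 CPM in the control and 20.8 CPM in the mutant (edgeR adjusted p = 0.0940). Their sums of 209 to 275 CPM and 221 to 300 CPM overlapped.

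Among 8 subplate markers, *Cplx3* rose from 1.59 to 5.25 CPM (log2 fold change 1.70, edgeR adjusted p = 0.0162), and 6 of the 8 were below 0, with a median log2 fold change of -0.11. Without adjustment 2 were lower and 1 higher, and the list summed to 120 to 134 CPM in the control and 92.5 to 125 CPM in the mutant. Among 8 markers of the oligodendrocyte lineage *Cspg4* rose, with a log2 fold change of 0.56 (edgeR adjusted p = 0.0355), and among 8 markers of microglia *C1qb* rose, with 0.46 (edgeR adjusted p = 0.0422). Without adjustment 4 of the oligodendrocyte lineage markers were higher and 1 lower, and 3 of the microglia markers were higher and 1 lower. Of all genes tested, 0.510% passed as lower and 0.375% as higher, and without adjustment 7.05% were lower and 6.59% higher. No gene passed among 13 interneuron, 12 radial glia and astrocyte, 8 endothelial and mural, 5 tested blood and 5 tested choroid plexus markers. Their counts with an unadjusted p under 0.05 were 1, 4, 1, 0 and 0. The sums of these lists overlapped between the groups.

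The genes of the pathways in which copines act were counted from lists made by name. Of 14 known binding partners of copines, 0 passed edgeR's test, beside 0.510% of all genes lower and 0.375% higher. An unadjusted p under 0.05 was found for 2, both lower, beside 7.05% of all genes lower and 6.59% higher. The median log2 fold change of the 14 was -0.0041. *Snap25*, a component of the vesicle fusion machinery, came closest, with 349 ± 16.4 CPM in the control and 275 ± 14.7 CPM in the mutant (log2 fold change -0.34, SE 0.07, edgeR adjusted p = 0.0635). Its libraries did not overlap. Next was *Mycbp*, a binding partner of the Myc protein, with 13.2 and 10.1 CPM (edgeR adjusted p = 0.252).

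Of 20 genes of BDNF, TrkB and Rac1 signalling to spine actin, the pathway in which the *Cpne6* protein takes part, 1 fell and 0 rose. It was *Baiap2*, which encodes the Rac1-binding actin regulator IRSp53 and went from 59.6 ± 2.07 to 41.9 ± 5.33 CPM (log2 fold change -0.51, SE 0.09, edgeR adjusted p = 0.0339). Of all genes tested, 0.510% fell and 0.375% rose. Without adjustment 4 of the 20 were lower and 0 higher, beside 7.05% and 6.59% of all genes. The median of the 20 was -0.012, beside 0.0043 over all genes, and 10 of them were below 0.

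Of 42 genes of other proteins with C2 domains, 38 were tested, of which 2 fell and 1 rose. *Sytl2*, a Rab27-binding synaptotagmin-like protein, fell from 7.57 ± 0.566 to 4.27 ± 0.518 CPM (log2 fold change -0.82, SE 0.14, edgeR adjusted p = 0.0212). *Rasa4*, a calcium-regulated Ras GTPase activator, fell from 5.57 ± 1.08 to 3.01 ± 0.274 CPM (log2 fold change -0.88, SE 0.17, edgeR adjusted p = 0.0422). *Rph3a*, the synaptic vesicle protein rabphilin, rose from 135 ± 9.58 to 188 ± 8.87 CPM (log2 fold change 0.48, SE 0.08, edgeR adjusted p = 0.0192). Calls were made for 0.510% of all genes tested in the lower and 0.375% in the higher direction. Without adjustment 8 of the 38 were lower and 2 higher, beside 7.05% and 6.59% of all genes. The median of the 38 was -0.043, beside 0.0043 over all genes.

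Of 24 neuronal calcium sensors and EF-hand buffers, which bind calcium by another fold than the C2 domain, 22 were tested and 0 passed. The 2 with the smallest p were *Hpcal1*, with 20.9 and 13.1 CPM (edgeR adjusted p = 0.133), and *Cabp7*, with 5.43 and 3.29 CPM (edgeR adjusted p = 0.166). Without adjustment 8 of the 22 had a p under 0.05 and were lower, beside 7.05% of all genes tested. The median log2 fold change of the 22 was -0.20, beside 0.0043 over all genes.

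To find genes that followed *Cpne6* over the 8 libraries, the root mean square distance of centred log2 CPM was taken between *Cpne6* and each gene tested. It was smallest for *Slc30a3*, the zinc transporter of synaptic vesicles, at 0.207, with a median over all genes of 0.862. Then came *Vegfd*, a lymphatic growth factor, at 0.227, *6530403H02Rik* at 0.231, *Gcg*, which encodes proglucagon, at 0.244 and *Slc6a7*, the brain proline transporter, at 0.273. *Slc6a7* had a level like that of *Cpne6*, with 23.9 and 7.37 CPM, and was highest in control replicates 4 and 1 as *Cpne6* was. The mean counts of *Slc30a3*, *Vegfd*, *6530403H02Rik* and *Gcg* were 34.6, 33.9, 51.8 and 16.8 per library, so these rest on few reads. This likeness includes the difference between the groups and is a description. Of the copines *Cpne7* came closest, at 0.481 and place 75, then *Cpne4* at 0.600 and *Cpne2* at 0.650. *Cpne3* was farthest, at 0.918.

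Genes within 10 kb of a copine were looked at for a change around the locus. *Carmil3*, an actin capping protein regulator that ends 2173 bases from *Cpne6*, was at 164 ± 22.8 CPM in the control and 143 ± 19.4 CPM in the mutant (log2 fold change -0.19, SE 0.12, edgeR adjusted p = 0.485). *Nrl*, a photoreceptor transcription factor 1547 bases from *Cpne6* on the other side, had a mean of 4.88 counts and was not tested. Besides *Carmil3*, the neighbours tested were *Spag4*, *Rbm12*, *Nlrc5*, *Fam192a*, *Rmdn1*, *Mtmr14* and *Brpf1*. No tested gene in these windows passed, and the smallest adjusted p was the 0.184 of *Mtmr14*, next to *Cpne9*. Unadjusted p-values under 0.05 were those of *Mtmr14*, 0.00714, and of *Spag4*, 0.0360, the latter next to *Cpne1*, both from edgeR. Their directions were opposite. *Mtmr14* was higher in the mutant, with a log2 fold change of 0.25 and no overlap of the groups. *Spag4* was lower, with a log2 fold change of -0.39, and its groups overlapped. Without adjustment 7.05% of all genes tested were lower and 6.59% higher, and with adjustment 0.510% and 0.375%.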

How the data were processed

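The authors deposited a table of raw counts by Ensembl identifier for each of the 8 libraries. Total RNA of the tissue was made into libraries with the Illumina TruSeq RNA Sample Preparation v2 kit, which does not mark strand. The submitters' processing notes name mm10. The aligner, the counting program and the annotation are not given in the sources used here. Of 48709 genes, 48349 were matched by identifier to GENCODE M21 on GRCm38, which gave symbols, exonic lengths and coordinates, and 30127 had a count. Genotypes beyond control and double knockout, and the Cre line, come from the paper.

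The members and lists were chosen with earlier results of these data known. Named are all copines, *Smarcc1* and *Smarcc2*, called genes of each list or else the 2 with the smallest p, neighbours within 10 kb and the 5 genes most like *Cpne6*.

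Counts were fitted with edgeR 4.0.16 in R 4.3.3 (TMM, filterByExpr with a minimum count of 10, robust quasi-likelihood F test, two-sided), with Benjamini-Hochberg adjustment over 16287 genes and a threshold of 0.05. The biological coefficient of variation was 0.143. Intervals of 95% use the fit's degrees of freedom, and log2 CPM a prior count of 2. Libraries of a group all differed beyond counting noise, the lowest chi-square per degree of freedom being 3.77. Same-numbered replicates were not treated as pairs, since the correlations of their deviations ranged from -0.14 to 0.13. The test was checked on simulated counts. Alternatives were DESeq2 1.42.0 size factors and Wald test, limma 3.58.1 voom, other filters, a replicate block, lane tag 2 only, libraries with little choroid plexus signal and each library left out. Coding sequences were aligned pairwise, and figures were made with matplotlib 3.10.9.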

Additional observations from a re-analysis of the deposited data

Results flagged for a closer look

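The level of *Cpne8* in control replicate 4, 17.3 CPM, stood apart from the other 3 control libraries, which lay between 14.6 and 15.02 CPM. It exceeded the limit of Dixon's test for a group of 4. Of 26 groups of 4 values tested, over the copines, *Smarcc1*, *Smarcc2*, the total count and the mitochondrial share, this was 1, and chance alone gives about 1 in 20, or 1.3 here. The same library was the highest control for 6 of the 8 tested copines, beside 22.9% of all genes tested.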

How the results depend on the processing

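The genes lower and higher in the dcKO_Nex-Cre cortex numbered 83 and 61 in the edgeR test. They numbered 279 and 215 with DESeq2's Wald test, 150 and 109 with no filter on low counts, and 1 and 8 with the 5 libraries of low choroid plexus signal, which was chosen after seeing the data. With lane tag 2 only, 140 were higher and 108 lower. With a replicate block the counts were 33 and 21, and the libraries share only a number. Leaving out 1 library gave 9 to 619 lower and 9 to 659 higher, with 619 and 659 without dcKO_Nex-Cre replicate 4, and the cause was not tested. Of the copines other than *Cpne6*, 0 passed in either direction in any of these fits. The log2 fold change of *Cpne6* was -1.71 to -1.33 when 1 library was left out. It was -1.52 with the block and -1.07 with low choroid plexus signal. *Cpne5* turned to 0.17 with lane tag 2 only, and was -0.21 to 0.088 when 1 library was left out, with 0.088 without dcKO_Nex-Cre replicate 4. The other 6 copines kept their sign in all 16 alternatives. *Smarcc1* was lower in all of them, at -0.63 to -0.47 when 1 library was left out, -0.54 with the block and -0.46 with lane tag 2 only, and no longer passed in 9. *Smarcc2* no longer passed with low choroid plexus signal, at -0.93. Subsets hold fewer libraries. The fewest counts lay behind *Cpne9* and *Cpne1*.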
